A study of Mus musculus with 36 samples.

Results

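Matrix metalloproteinases and their inhibitor Timp1 were followed in the mouse distal colon, in a colitis model, after rectal dosing with small interfering RNAs (siRNAs). The genes were Mmp2, Mmp3, Mmp7, Mmp8, Mmp9, Mmp10, Mmp12, Mmp13, Mmp14 and Timp1, chosen by name, which is 10 of the 19938 genes that had a probe set annotated to no other gene. Each of the 10 had exactly 1 such probe set, and no choice between probe sets was needed. Expression was read on Affymetrix arrays, 1 array for each of 36 colons, as log2 probe set signal. The 5 groups were siTNF-OMe-P (8 arrays), dosed with an siRNA against Tnf that carried O-Methyl-propanediol nucleotides, siTNF-OMe (6 arrays), dosed with a Tnf siRNA that carried O-Methyl nucleotides, siTNF (6 arrays), dosed with the unmodified Tnf siRNA, scrambled (7 arrays), dosed with an siRNA of scrambled sequence, and Control (9 arrays). All 36 colons, Control included, are labelled as treated with 5% dextran sulfate sodium (DSS), a sulfated sugar polymer that damages the gut lining. The study's design text lists siRNA-dosed groups only, so it could not be settled what else, if anything, the Control animals were given. The labelled colon length did not overlap between dosed and Control animals: it was 5.2 to 7.1 in the 27 dosed animals and 7.2 to 8.1 in Control, in a unit labelled mm that such values leave in doubt. Myeloperoxidase (MPO) activity, an enzyme activity of neutrophils, was 0.031 to 1.35 U/mg in dosed animals (median 0.391) and 0.009 to 0.088 U/mg in Control (median 0.038), ranges that overlap at their ends. A difference over Control is therefore one between colons that also differed in these measures. Strain, sex, age, and the amount and timing of the siRNA doses are not given in the sources used here, so a match of dose between the siRNAs could not be checked.

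Matrix metalloproteinases are zinc-dependent enzymes that cut collagens, fibronectin, laminins, elastin and other matrix proteins. Most are secreted as inactive proenzymes, become active when a propeptide is cut off, and are blocked by tissue inhibitors of metalloproteinases such as Timp1. In the inflamed gut they come mainly from fibroblasts, macrophages, neutrophils and endothelium, and cytokines such as tumour necrosis factor and interleukin 1 induce several of them, in part through the transcription factor AP-1.

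The tissue label was checked against markers. The mean log2 signal of 10 colon epithelium markers was between 12.24 and 12.82 on every array. A mean over 11 squamous epithelium markers (Krt5, Krt14 and others) was above 8 on 8 arrays, namely siTNF-OMe-P replicates 1, 2 and 5, siTNF-OMe replicates 2, 3, 4 and 5, and siTNF replicate 3. It ran from 7.30 to 10.79 in siTNF-OMe-P, 7.22 to 10.19 in siTNF-OMe, 7.12 to 8.81 in siTNF, 7.13 to 7.34 in scrambled and 7.03 to 7.58 in Control. The limit of 8 was set after these values were seen. The spread of signals over all probe sets also differed between arrays, with an SD from 1.55 to 1.89. It was under 1.7 on 8 arrays, of which 4 were Control (replicates 4, 5, 6 and 8). Differences over Control are also given below without either set of arrays where that changed a call. Among the dosed groups directions turned for some genes, and not every such turn is given. In whole tissue, fewer cells of a type and less RNA per cell cannot be told apart.

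Promoters are shown for the members that hold an AP-1 sequence, among them Mmp3, Mmp10 and Mmp13, whose pairs had residual correlations of 0.91 to 0.96 across the colons. Timp1, whose window held no exact match to the AP-1 motif searched here, had 0.88 to 0.93 with these 3. Mmp7 and Mmp12, which also hold the sequence, had only -0.05 to 0.03 and 0.29 to 0.44 with the same 3. The sequences are RefSeq's, build GRCm38.p6, plus strand, 250 bases before to 50 bases after the start, and capitals mark a match to TGANTCA, the AP-1 motif, searched on both strands. The windows are chr9:7272264-7272563 for Mmp13, chr9:7445572-7445871 for Mmp3, chr9:7502092-7502391 for Mmp10, chr9:7691840-7692139 for Mmp7 and chr9:7347124-7347423 for the second of the starts listed for Mmp12.
Mmp13: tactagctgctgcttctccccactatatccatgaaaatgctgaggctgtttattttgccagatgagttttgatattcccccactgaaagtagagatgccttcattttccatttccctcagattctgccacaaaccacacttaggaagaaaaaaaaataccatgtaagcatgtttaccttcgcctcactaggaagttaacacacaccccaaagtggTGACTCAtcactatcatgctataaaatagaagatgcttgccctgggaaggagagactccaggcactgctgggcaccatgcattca
Mmp3: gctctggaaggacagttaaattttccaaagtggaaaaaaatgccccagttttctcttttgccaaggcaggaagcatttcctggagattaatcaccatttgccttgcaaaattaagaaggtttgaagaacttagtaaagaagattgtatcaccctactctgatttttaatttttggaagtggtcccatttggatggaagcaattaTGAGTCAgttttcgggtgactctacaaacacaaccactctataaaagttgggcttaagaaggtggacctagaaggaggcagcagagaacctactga
Mmp10: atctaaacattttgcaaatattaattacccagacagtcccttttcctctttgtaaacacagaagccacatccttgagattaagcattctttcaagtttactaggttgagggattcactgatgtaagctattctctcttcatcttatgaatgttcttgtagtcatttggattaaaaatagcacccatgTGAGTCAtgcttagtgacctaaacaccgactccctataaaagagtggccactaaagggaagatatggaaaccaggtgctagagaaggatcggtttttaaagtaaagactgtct
Mmp7: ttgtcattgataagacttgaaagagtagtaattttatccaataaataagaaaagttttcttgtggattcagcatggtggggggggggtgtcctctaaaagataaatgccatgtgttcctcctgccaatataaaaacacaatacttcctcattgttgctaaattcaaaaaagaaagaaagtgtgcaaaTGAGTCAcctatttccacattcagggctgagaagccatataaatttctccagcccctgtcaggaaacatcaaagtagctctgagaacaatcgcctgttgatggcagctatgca
Mmp12: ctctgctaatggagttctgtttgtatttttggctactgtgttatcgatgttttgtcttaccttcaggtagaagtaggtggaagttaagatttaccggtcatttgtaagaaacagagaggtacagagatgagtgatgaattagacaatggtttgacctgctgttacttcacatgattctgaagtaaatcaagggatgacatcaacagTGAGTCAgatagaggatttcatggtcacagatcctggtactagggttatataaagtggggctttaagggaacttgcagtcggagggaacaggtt

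The match began 35 bases before the start in Mmp13, 46 in Mmp3, 63 in Mmp10, 63 in Mmp7 and 44 in Mmp12. The other windows of Mmp7 and Mmp12 and those of Mmp8, Mmp14 and Timp1 held none. The 10 windows belong to 8 genes, and Mmp2 and Mmp9 had no window and were not searched. Of the 10 windows 5 held a match, and 7.81% of 32851 promoter windows of the same length held at least 1. The ETS sequence AGGAAG, searched on both strands, lay in 8 of the 10 windows, those of Mmp13, Mmp3, Mmp7, Mmp8, Mmp12, Mmp14 and Timp1, and in 35.4% of all windows, and no such match overlapped an AP-1 match. A match of these letters does not show that a factor binds there. Variants of the motifs were not searched, so a window without a match, such as that of Timp1, may still hold a variant.

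Mmp2 and Mmp14 were higher in every siRNA-dosed group than in Control, with no overlap between arrays. Mmp2, gelatinase A, cuts basement membrane and denatured collagen, and Mmp14, a membrane-bound metalloproteinase, activates the Mmp2 proenzyme at the cell surface. The lowest, median and highest log2 signals of Mmp2 were 10.52, 11.12 and 11.84 in siTNF-OMe-P, 11.05, 11.49 and 11.72 in siTNF-OMe, 10.62, 10.99 and 11.98 in siTNF, and 10.55, 10.96 and 11.31 in scrambled, against 9.38, 10.13 and 10.49 in Control. Those of Mmp14 were 10.49, 10.87 and 11.50 in siTNF-OMe-P, 10.83, 11.17 and 11.28 in siTNF-OMe, 10.48, 10.80 and 11.57 in siTNF, and 10.54, 10.86 and 11.14 in scrambled, against 9.02, 10.04 and 10.33 in Control. All 27 dosed arrays thus lay above all 9 Control arrays for both genes.

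In the limma model fitted to all probe sets, Mmp2 exceeded Control by 1.09 ± 0.16 log2 in siTNF-OMe-P, 1.29 ± 0.18 in siTNF-OMe, 1.02 ± 0.18 in siTNF and 0.87 ± 0.17 in scrambled (difference ± SE, adjusted p from 2.03e-06 to 0.000443). Mmp14 exceeded it by 1.07 ± 0.17, 1.24 ± 0.18, 1.03 ± 0.18 and 0.96 ± 0.17 log2 in the same order of groups (adjusted p from 5.42e-06 to 0.000164). These are about 1.82-fold to 2.45-fold for Mmp2 and 1.95-fold to 2.36-fold for Mmp14. The 4 Control arrays of small spread held the 4 lowest Control values of both genes, 9.38 to 9.98 for Mmp2 and 9.02 to 9.74 for Mmp14. Without the 8 arrays of small spread both genes kept their calls in all 4 comparisons at smaller sizes, 0.53 to 1.00 log2 for Mmp2 and 0.54 to 0.84 log2 for Mmp14.

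Mmp9, gelatinase B, which cuts many of the same substrates and is carried by neutrophils and macrophages, did not pass the test in any comparison. Its lowest, median and highest signals were 6.77, 7.41 and 8.62 in siTNF-OMe-P, 7.18, 7.40 and 8.01 in siTNF-OMe, 6.90, 7.12 and 8.94 in siTNF, 7.00, 7.26 and 7.85 in scrambled and 6.83, 6.95 and 7.35 in Control. The groups overlapped, and the highest values came from single colons, replicate 3 of siTNF and replicate 3 of siTNF-OMe-P. Its differences over Control were 0.45 ± 0.20, 0.50 ± 0.22, 0.36 ± 0.22 and 0.24 ± 0.21 log2 in siTNF-OMe-P, siTNF-OMe, siTNF and scrambled (adjusted p from 0.146 to 0.619). It passed in siTNF-OMe without siTNF replicate 3 (0.51 log2) and in siTNF-OMe-P without its replicate 7 (0.59 log2).

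Mmp3 had the highest fitted difference of the 10 genes in all 4 comparisons with Control. Mmp3, stromelysin 1, cuts proteoglycans, laminin and fibronectin and activates the collagenase proenzymes, and Mmp10 is stromelysin 2. Mmp3 had lowest, median and highest log2 signals of 8.92, 10.27 and 11.87 in siTNF-OMe-P, 9.67, 11.00 and 11.54 in siTNF-OMe, 8.85, 9.74 and 12.18 in siTNF, and 8.95, 9.75 and 11.57 in scrambled, against 7.87, 8.27 and 9.46 in Control. Every siTNF-OMe array lay above every Control array, while the other dosed groups overlapped Control at its upper end. Mmp3 exceeded Control by 1.93 ± 0.38 log2 in siTNF-OMe-P (adjusted p 0.000314), 2.29 ± 0.41 in siTNF-OMe (0.000101), 1.50 ± 0.41 in siTNF (0.0106) and 1.34 ± 0.39 in scrambled (0.0199), which is 3.80-fold, 4.90-fold, 2.83-fold and 2.53-fold.

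The smaller of these calls depended on single colons. Without scrambled replicate 2 the scrambled difference of Mmp3 was 1.12 log2 and without scrambled replicate 1 it was 1.25, neither past the threshold, and without siTNF replicate 3 the siTNF difference was 1.12 and not past it.

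Mmp10 had signals of 8.35, 9.66 and 11.58 (lowest, median, highest) in siTNF-OMe-P, 9.00, 10.50 and 10.81 in siTNF-OMe, 8.44, 8.77 and 10.84 in siTNF, 8.61, 9.08 and 11.01 in scrambled and 7.83, 8.16 and 9.03 in Control. The highest Control value, 9.03, reached into every dosed group, least of all into siTNF-OMe, where it passed 1 array. Mmp10 rose by 1.54 ± 0.35 log2 in siTNF-OMe-P (adjusted p 0.00173) and 1.84 ± 0.38 in siTNF-OMe (0.000649). The differences of 0.81 ± 0.38 in siTNF (0.191) and 0.99 ± 0.37 in scrambled (0.0802) did not pass. The scrambled difference did pass, at 1.32 log2 (adjusted p 0.0137), without the 8 arrays of small spread, and also without Control replicate 8 (1.13 log2), scrambled replicate 4 (1.16) or siTNF-OMe-P replicate 8 (1.01). The siTNF difference passed only with array SD as a covariate (1.01 log2, adjusted p 0.0391) and with array weights (1.09 log2, 0.0330), settings in which that of scrambled passed too.

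Of the collagenases, Mmp13, collagenase 3 and the main interstitial collagenase of mouse tissue, rose in the groups dosed with modified siRNA. Its lowest, median and highest signals were 7.60, 8.44 and 10.85 in siTNF-OMe-P, 8.13, 9.22 and 9.55 in siTNF-OMe, 7.79, 7.92 and 9.98 in siTNF, 7.84, 8.13 and 10.60 in scrambled and 7.38, 7.70 and 8.07 in Control. All siTNF-OMe arrays lay above all Control arrays. In scrambled and in siTNF a single colon stood far above the next (10.60 against 8.45 in scrambled, 9.98 against 8.12 in siTNF). The difference over Control was 1.06 ± 0.32 log2 in siTNF-OMe-P (adjusted p 0.0179) and 1.24 ± 0.34 in siTNF-OMe (0.0106), against 0.62 ± 0.34 in siTNF (0.289) and 0.74 ± 0.33 in scrambled (0.172). The siTNF-OMe-P call was lost without its replicate 3 (0.82 log2), without its replicate 8 (0.88 log2) and without the arrays of small spread (0.94 log2, adjusted p 0.0577). Without the 8 arrays of raised squamous markers neither call held, at 1.09 log2 in siTNF-OMe-P (adjusted p 0.0939) and 0.82 in siTNF-OMe (0.740).

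Mmp8, the collagenase stored in neutrophil granules, did not pass in any comparison. The mean signals of Mmp8, Mmp7 and Mmp9 were low, at 6.83, 7.28 and 7.31 log2, with 21.5%, 31.5% and 32.2% of all probe sets below them. No measure of signal against background was used, so for these genes the lack of a call may reflect weak signal. Its lowest, median and highest signals were 6.50, 6.78 and 8.86 in siTNF-OMe-P, 6.66, 6.98 and 7.88 in siTNF-OMe, 6.26, 6.61 and 9.36 in siTNF, 6.29, 6.60 and 7.48 in scrambled and 6.08, 6.35 and 7.21 in Control. Most dosed arrays fell within the Control range, and the top values were those of the replicate 3 colons of siTNF, siTNF-OMe-P and siTNF-OMe. Differences over Control lay between 0.22 and 0.57 log2 (adjusted p from 0.262 to 0.784). Without the arrays of small spread Mmp8 passed in siTNF-OMe-P (0.76 log2, adjusted p 0.0371) and in siTNF-OMe (0.76 log2, 0.0299).

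Timp1, the secreted inhibitor that binds the active enzymes, rose in all 4 dosed groups. Its lowest, median and highest log2 signals were 8.54, 9.43 and 10.93 in siTNF-OMe-P, 9.17, 10.05 and 10.30 in siTNF-OMe, 8.19, 9.07 and 10.29 in siTNF, and 8.35, 8.93 and 10.36 in scrambled, against 7.67, 7.99 and 8.64 in Control. Every siTNF-OMe array exceeded every Control array, and in each other dosed group at least 1 array fell inside the Control range. The differences were 1.64 ± 0.28 log2 in siTNF-OMe-P (adjusted p 5.00e-05), 1.73 ± 0.30 in siTNF-OMe (7.71e-05), 1.11 ± 0.30 in siTNF (0.0107) and 0.96 ± 0.29 in scrambled (0.0250), or 3.12-fold, 3.32-fold, 2.15-fold and 1.94-fold. The scrambled call was lost without scrambled replicate 1 (0.90 log2), 2 (0.77) or 3 (0.89), and the siTNF call without siTNF replicate 3 (0.93).

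Mmp12, macrophage elastase, and Mmp7, matrilysin, which in mouse gut is made mainly by Paneth cells of the small intestine, did not pass in any comparison. Mmp12 had lowest, median and highest signals of 7.92, 8.38 and 8.72 in siTNF-OMe-P, 8.17, 8.27 and 8.83 in siTNF-OMe, 7.79, 8.20 and 8.55 in siTNF, 7.67, 8.22 and 8.90 in scrambled and 7.67, 7.89 and 8.54 in Control. The groups overlapped, with 1 array of each dosed group above all Control arrays. The differences of Mmp12 over Control were between 0.17 and 0.34 log2. Mmp7 had 7.17, 7.22 and 7.68 in siTNF-OMe-P, 7.13, 7.18 and 7.44 in siTNF-OMe, 6.94, 7.17 and 7.49 in siTNF, 7.18, 7.23 and 7.46 in scrambled and 6.87, 7.18 and 8.03 in Control, where the dosed arrays all lay inside the Control range. It was the only member whose fitted difference was below 0 in all 4 groups, between -0.15 and -0.03 log2.

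For Mmp7 and Mmp12 the 4 Control arrays of small spread were also the 4 highest of their group, as they were for Mmp3, Mmp8, Mmp10, Mmp13 and Timp1. Mmp9 showed no such split. Without the 8 arrays of small spread, the Mmp7 differences turned positive, at 0.18 log2 in siTNF-OMe-P, 0.20 in siTNF-OMe, 0.09 in siTNF and 0.24 in scrambled, and passed in all but siTNF (adjusted p 0.0133, 0.00579, 0.280 and 0.00185), so Mmp7 has no settled direction. Mmp12 passed in the same 3 groups, at 0.53, 0.56 and 0.48 log2.

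**Figure D1:**
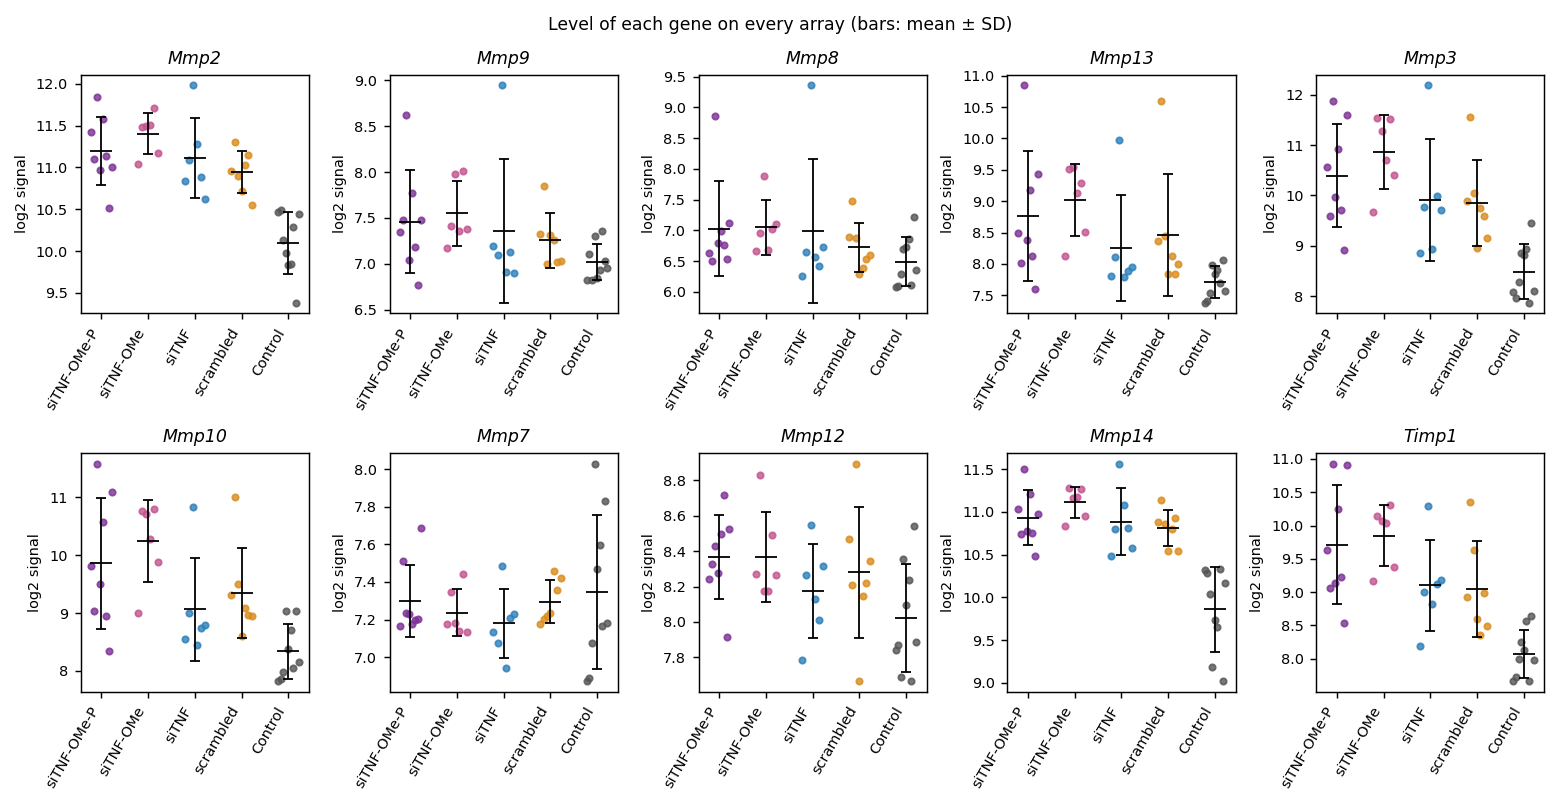
Log2 signal (vertical axis) of each of the 10 genes on every array, by group from siTNF-OMe-P on the left to Control on the right. Points are arrays, and black bars give the mean ± SD of 8, 6, 6, 7 and 9 arrays. Mmp2 and Mmp14 of all dosed groups lie above Control, while for Mmp8 and Mmp9 a single siTNF array, at 9.36 and 8.94, stands far above its group.

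Set in order of their group means, without batch terms, siTNF-OMe was highest and Control lowest for 9 of the 10 genes. The exception was Mmp7, highest in Control (7.35 ± 0.41, SD) and lowest in siTNF (7.18 ± 0.18). How many of all probe sets had siTNF-OMe highest and Control lowest was not counted. For Mmp12 the means of siTNF-OMe and siTNF-OMe-P were 8.368 and 8.366. With batch terms, Mmp8 differed more from Control in siTNF (0.57 log2) than in siTNF-OMe (0.50). In siTNF-OMe 4 arrays had a squamous marker mean above 8. Neighbours in the order differed past the threshold only at the lower end, between Control and the next group, and only for Mmp2, Mmp3, Mmp14 and Timp1.

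Counted over the 10 genes, 6 rose over Control in siTNF-OMe-P, 6 in siTNF-OMe, 4 in siTNF and 4 in scrambled, and none fell. Of all 28853 probe sets, 15.9% passed in either direction in siTNF-OMe-P over Control, 14.8% in siTNF-OMe, 13.8% in siTNF and 11.7% in scrambled, and 9.35%, 9.01%, 9.09% and 7.27% passed as higher and 6.58%, 5.81%, 4.71% and 4.45% as lower. Mmp2, Mmp3, Mmp14 and Timp1 passed in all 4 comparisons, and Mmp10 and Mmp13 in the comparisons of the modified siRNAs. Arrays did not overlap Control for 2 genes in siTNF-OMe-P, 5 in siTNF-OMe, 2 in siTNF and 2 in scrambled, where 2.50%, 4.56%, 2.29% and 1.82% of all probe sets did the same. The median difference of the 10 genes was 1.06, 1.24, 0.71 and 0.81 log2, against a median over all probe sets of -0.03, -0.05, -0.04 and -0.03. The 4 comparisons share the same 9 Control arrays and are not independent of one another.

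All 20 called differences had the same direction within each of the 3 amplification batches and each of the 2 hybridization batches. The size varied: Mmp3 in scrambled over Control was 2.38 log2 in hybridization batch 1 and 0.67 in batch 2, and Timp1 was 1.51 and 0.61. In siTNF-OMe-P over Control, Mmp3 was 2.44 and 1.74 log2 and Timp1 1.99 and 1.53 in the same batches. A batch alone held 1 to 5 arrays of a group. Where both groups had more than 1 array, between 0 and 9 of the 10 genes passed in a batch alone. The share of all probe sets that passed there ran from 0.229% to 33.6%, and the 9 genes came with the 33.6%.

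Without the 8 arrays with raised squamous markers, 5, 2, 5 and 7 arrays of siTNF-OMe-P, siTNF-OMe, siTNF and scrambled remained. Then 5 genes passed in siTNF-OMe-P over Control, 1 in siTNF-OMe (Mmp2, 1.02 log2, adjusted p 0.0266), 2 in siTNF (Mmp2 and Mmp14) and 3 in scrambled. Of all probe sets 9.14%, 3.78%, 10.1% and 9.86% passed in the same order of groups. With all arrays the share in siTNF-OMe was 14.8%, so its calls fell over the whole array and not only for these genes. In siTNF-OMe, with 2 arrays left, the calls lost were Mmp3 (1.74 log2, adjusted p 0.145), Mmp10 (1.28, 0.364), Mmp13 (0.82, 0.740), Mmp14 (1.00, 0.0547) and Timp1 (1.40, 0.142). In siTNF, Mmp3 (1.08 log2, 0.136) and Timp1 (0.90, 0.117) were lost, and in siTNF-OMe-P Mmp13 was. Scrambled, which kept all its arrays, lost Timp1 (0.96 log2, adjusted p 0.0501). The part of squamous tissue in the losses was not tested apart from that of fewer arrays. In siTNF-OMe-P, Mmp3 stayed at 1.83 log2 (adjusted p 0.00697), Mmp10 at 1.47 (0.0282) and Timp1 at 1.58 (0.00370).

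**Figure D2:**
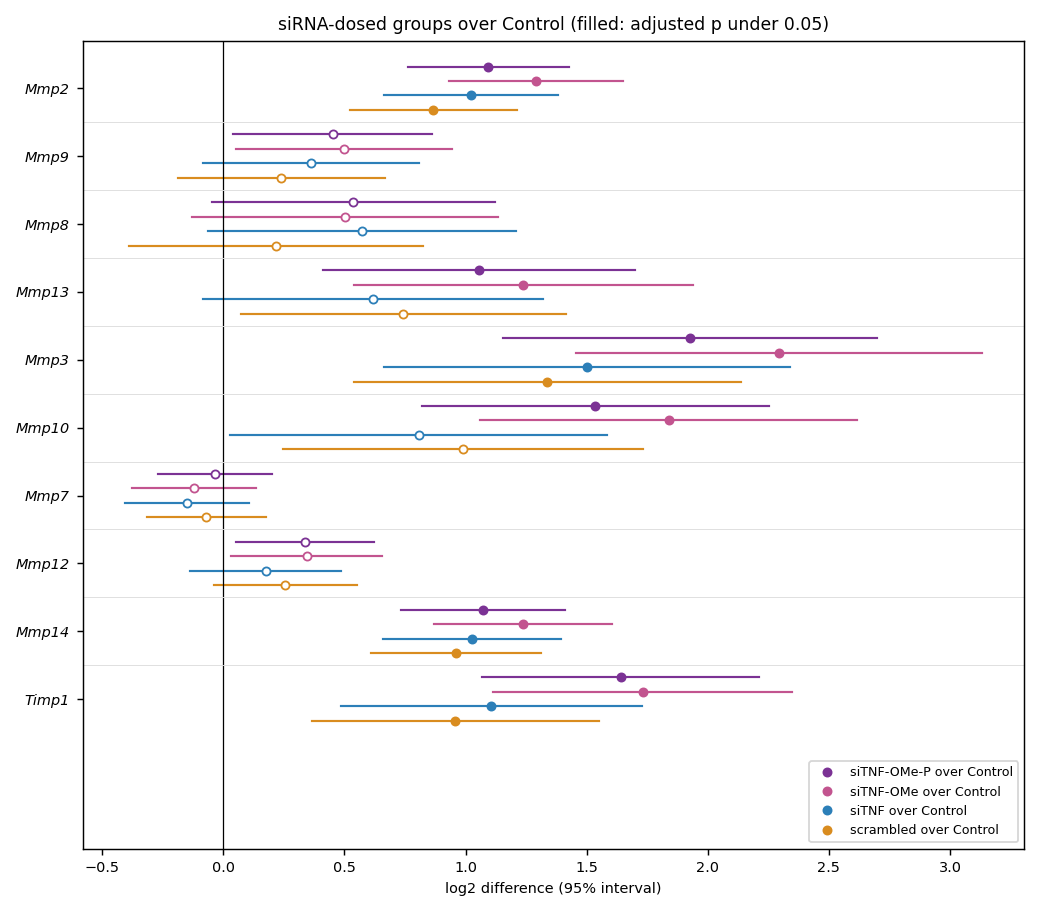
Log2 difference over Control (horizontal axis) with its 95% interval for each gene in the 4 dosed groups, from siTNF-OMe-P at the top of each gene to scrambled at the bottom. Filled points passed an adjusted p of 0.05. Filled points are found in all 4 comparisons for Mmp2, Mmp3, Mmp14 and Timp1, and Mmp7 lies at or just below 0.

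Comparisons among the dosed groups asked whether an siRNA against Tnf, with or without modified nucleotides, altered these genes relative to a scrambled siRNA. None of the 10 genes passed in any of the 6 comparisons, and neither did any of the 28853 probe sets (0% in each). At an unadjusted p under 0.05 limma gave 836 probe sets for siTNF-OMe-P, 455 for siTNF-OMe and 311 for siTNF over scrambled, where about 1443 of 28853 would be reached by chance. The intervals were wide for the genes that vary most. Mmp3 differed from scrambled by 0.59 log2 in siTNF-OMe-P (95% interval -0.24 to 1.42), 0.96 in siTNF-OMe (0.07 to 1.84) and 0.16 in siTNF (-0.73 to 1.05). Timp1 differed by 0.68 (0.07 to 1.29), 0.77 (0.12 to 1.43) and 0.15 (-0.51 to 0.81). For Mmp3 in siTNF, a fall of more than 0.73 log2 lay outside this interval, but the estimate depended on the arrays used. Without the 8 arrays of small spread it turned to -0.25 ± 0.42 log2 (± SE), and that of Timp1 to -0.13 ± 0.31. The siTNF differences of Mmp8, Mmp9 and Mmp14 from scrambled also turned negative there.

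At an unadjusted p under 0.05, 4 of the 10 genes were above scrambled in siTNF-OMe (Mmp2 by 0.42 log2, Mmp3, Mmp10 by 0.85, Timp1), 1 in siTNF-OMe-P (Timp1) and 0 in siTNF, and the adjusted p was at least 0.999 for each. No gene was below scrambled at that level. None of the 10 had all its arrays above all scrambled arrays, as 0.0589%, 0.0416% and 0.0312% of probe sets did in siTNF-OMe-P, siTNF-OMe and siTNF. The gene with the narrowest intervals was Mmp7, at 0.04 (-0.22 to 0.29), -0.05 (-0.32 to 0.22) and -0.08 (-0.35 to 0.19) log2 in siTNF-OMe-P, siTNF-OMe and siTNF over scrambled.

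The siRNAs differ in structure by O-Methyl nucleotides (siTNF-OMe over siTNF) and by O-Methyl-propanediol nucleotides (siTNF-OMe-P over siTNF). The largest difference between them was that of Mmp10, 1.03 log2 higher in siTNF-OMe than in siTNF (95% interval 0.18 to 1.89, unadjusted p 0.0198, adjusted p 1.00). Mmp3 was 0.79 higher (-0.13 to 1.72) and Mmp13 0.62 higher (-0.15 to 1.39) in the same comparison. siTNF-OMe-P over siTNF gave 0.73 log2 for Mmp10 (-0.07 to 1.53) and 0.43 for Mmp3 (-0.43 to 1.29). siTNF-OMe-P over siTNF-OMe gave -0.30 for Mmp10 (-1.10 to 0.50) and -0.37 for Mmp3 (-1.23 to 0.49). None of the 10 genes separated fully here either, against 0.0728% of probe sets for siTNF-OMe over siTNF, 0.0277% for siTNF-OMe-P over siTNF and 0.00693% for siTNF-OMe-P over siTNF-OMe. With adjustment over all probe sets none of the 3 comparisons between Tnf siRNAs called a gene, and intervals of this width do not show that the siRNAs act alike.

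**Figure D3:**
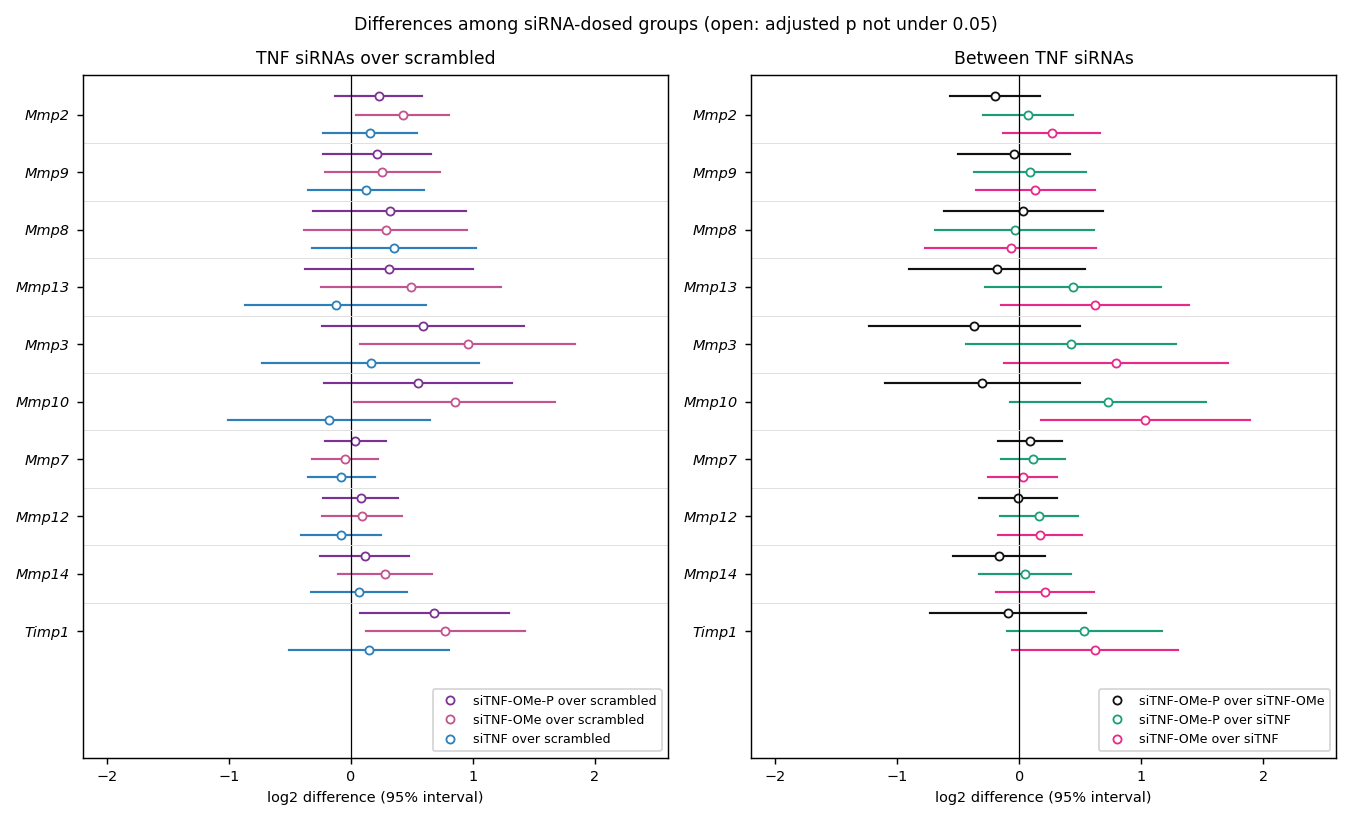
Log2 differences with 95% intervals for each gene among the dosed groups, the 3 Tnf siRNAs over scrambled on the left and the Tnf siRNAs over each other on the right. All points are open, since none passed an adjusted p of 0.05. The widest intervals are those of Mmp3 and Mmp10 and the narrowest those of Mmp7.

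Colons of the same group differed widely. The range of Mmp3 within a group was 2.95 log2 in siTNF-OMe-P, 1.87 in siTNF-OMe, 3.33 in siTNF, 2.61 in scrambled and 1.58 in Control. Certain colons were highest of their group for several genes: siTNF replicate 3 was the highest of its group for all 10 genes, siTNF-OMe-P replicate 3 for 8, scrambled replicate 2 for 8 and Control replicate 8 for 6. In siTNF-OMe the top was shared among replicates 5 (5 genes), 2 (3 genes) and 3 (2 genes). siTNF replicate 3 and Control replicate 8 are arrays of small spread, and Control replicate 8 was also the lowest of its group for Mmp2 and Mmp14.

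The neutrophil marker mean was also highest in siTNF replicate 3 (10.26, group median 8.26), siTNF-OMe-P replicate 3 (9.49, median 8.66), siTNF-OMe replicate 3 (9.36, median 8.78) and scrambled replicate 2 (9.12, median 8.15). The macrophage marker mean was highest in the same 4 colons, at 11.00, 10.97, 10.82 and 10.80. The fibroblast and endothelium marker means were highest in siTNF replicate 3, siTNF-OMe-P replicate 3 and scrambled replicate 2, but not in siTNF-OMe replicate 3. The colon epithelium mean was highest in none of the 4. The part of these cells in the metalloproteinase values was not tested. The squamous marker mean was 8.81 in siTNF replicate 3 and 10.19 in siTNF-OMe replicate 3, the highest of both groups, and below 8 in siTNF-OMe-P replicate 3 and scrambled replicate 2.

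After group, both batches and array spread were taken out, the genes fell into sets that varied together over the 36 arrays. These correlations are a description across arrays of shared tissue, with no test. Mmp13 and Mmp10 had r = 0.96, Mmp3 and Mmp10 0.95, Mmp3 and Timp1 0.93, Mmp10 and Timp1 0.92, and the 6 pairs among Mmp3, Mmp10, Mmp13 and Timp1 all had r between 0.88 and 0.96. Leaving out siTNF replicate 3 and siTNF-OMe-P replicate 3 changed that range to 0.87 to 0.96, with scrambled replicate 2, also high for these genes, kept in. Mmp2 and Mmp14 formed another close pair (0.91, and 0.88 without those 2 arrays). Mmp8 and Mmp9 had r = 0.80, and 0.64 without the 2 arrays, but were not a set of their own. Mmp9 had 0.80 with Mmp2 and 0.77 with both Mmp13 and Mmp14. Without the 2 arrays it had 0.72 with both Mmp2 and Mmp13, above its value with Mmp8. Mmp7, whose mean signal was low (7.28 log2), stood apart, with r between -0.32 and 0.08 to the other 9 genes.

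**Figure D4:**
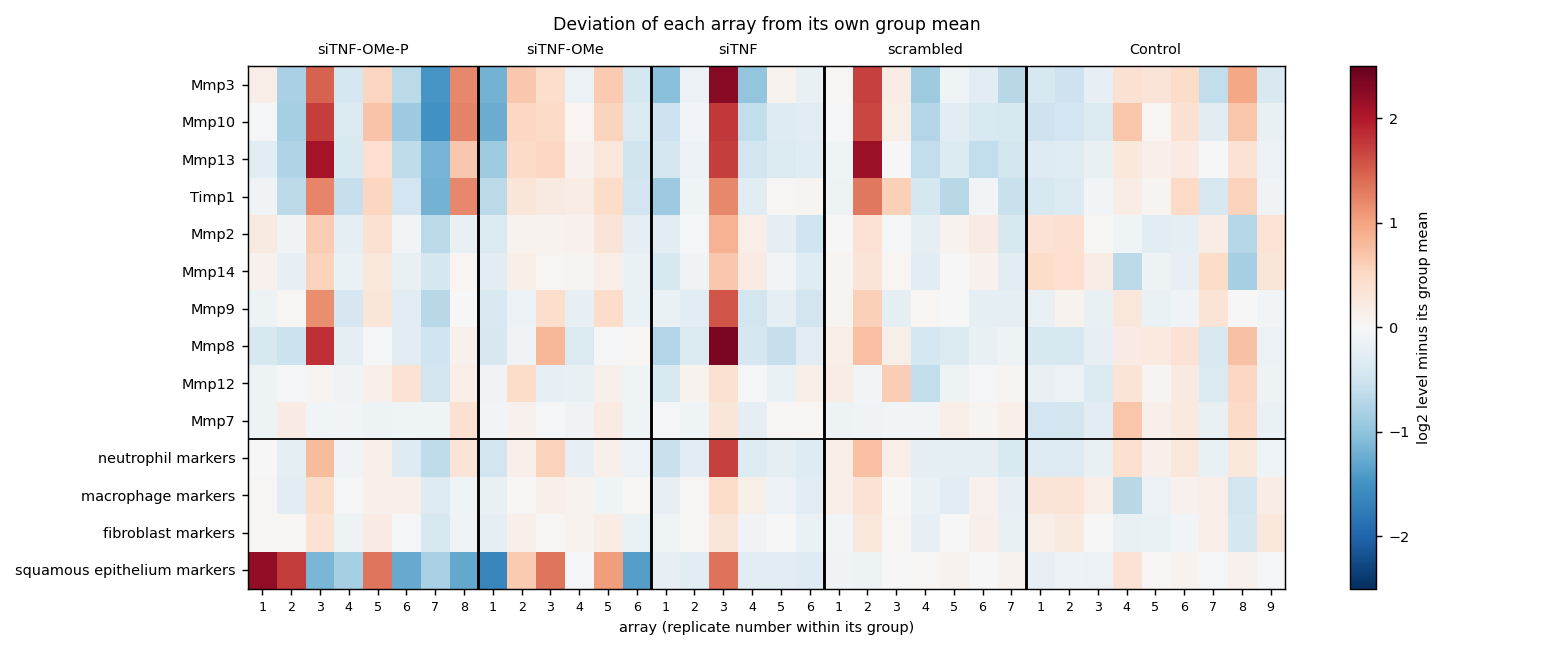
Deviation of every array (columns, numbered by replicate within each group, siTNF-OMe-P at the left and Control at the right) from its own group mean in log2, for the 10 genes and for the means of 4 marker lists (rows). Red is above and blue below the group mean. siTNF replicate 3, siTNF-OMe-P replicate 3 and scrambled replicate 2 are red across Mmp3, Mmp10, Mmp13, Timp1, Mmp9 and Mmp8 and across the neutrophil markers.

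The genes most like each member were taken by the same residual correlation over all genes with their own probe set, 3 for each. Mmp10 was closest to Cemip (r = 0.96), which encodes a protein that breaks down hyaluronan, followed by Mmp13 and Mmp3. Mmp13 was closest to Mmp10, Cemip (0.94) and Il11 (0.93), which encodes the cytokine interleukin 11. Mmp3 was closest to St3gal1 (0.95), a sialyltransferase gene, then Mmp10 and Cemip. Timp1 was closest to Mmp3, Inhba (0.92), which encodes the activin A subunit, and Mmp10. Mmp2 was closest to Trip6 (0.92), Plod1 (0.92), a collagen lysyl hydroxylase gene, and Mmp14. Mmp14 was closest to Rhoj, Trip6 and Scpep1 (0.93 each). Mmp8 was closest to Clec4d (0.91), Ifitm6 (0.91) and Retnlg (0.90), of which Clec4d and Retnlg are among the neutrophil markers used here. Mmp9 was closest to Gpx3 (0.88), A730049H05Rik (0.87) and Nsg1 (0.87). Mmp12 was closest to Clec4n (0.72), Hcar2 (0.71) and Taf2 (0.67), and Mmp7 to Ap5b1 (0.70), Adam30 (0.67) and Pate14 (0.66), so neither had a partner as close as the other members had.

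Mmp13, Mmp12, Mmp3, Mmp10, Mmp8 and Mmp7 lie in 1 cluster of 10 metalloproteinase genes on chromosome 9, chr9:7272514-7699585 in GRCm38, a span of 427 kb that also holds Mmp1b, Mmp1a, Mmp27 and Mmp20. Of these 10 genes 3 passed in siTNF-OMe-P over Control, 3 in siTNF-OMe (Mmp13, Mmp3 and Mmp10 in both), 1 in siTNF and 1 in scrambled (Mmp3 in both), where 15.9%, 14.8%, 13.8% and 11.7% of all probe sets passed, so 1 of 10 is no more than the background share. Mmp1a lies between Mmp3 and Mmp10 and differed from Control by -0.02, -0.08, -0.07 and -0.03 log2 in siTNF-OMe-P, siTNF-OMe, siTNF and scrambled. Mmp1b, on the other side of Mmp3, differed by -0.01, -0.03, -0.01 and -0.01. Their means over the arrays were low, 5.80 for Mmp1a and 5.52 for Mmp1b, and no measure of signal against background was used here. Mmp2, Mmp9, Mmp14 and Timp1 lie elsewhere, on chromosomes 8, 2, 14 and X.

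**Figure D5:**
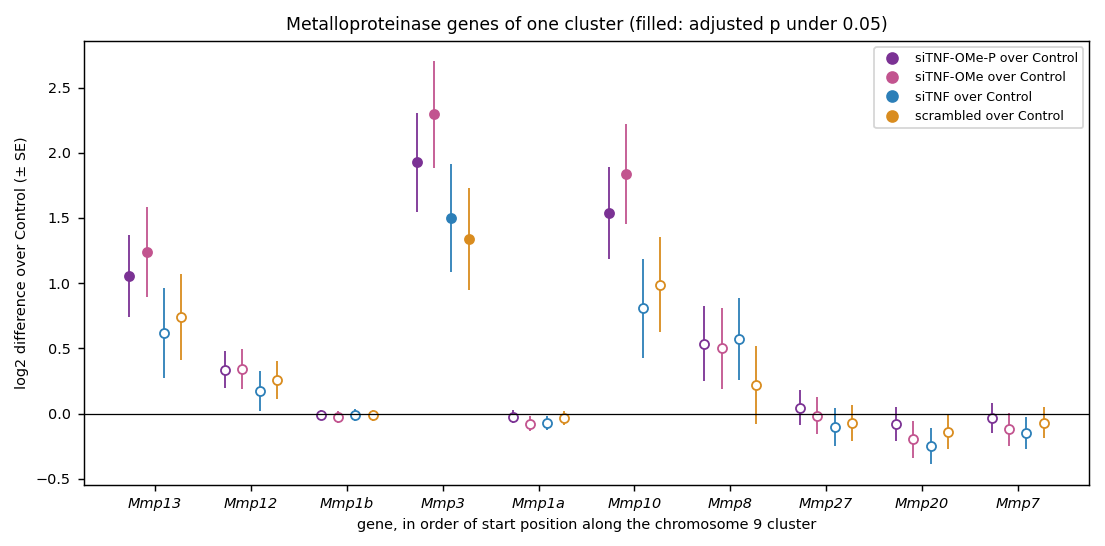
Log2 difference over Control ± SE (vertical axis) for the 10 metalloproteinase genes of the chromosome 9 cluster, in order of start position, in the 4 dosed groups. Filled points passed an adjusted p of 0.05. Mmp3, Mmp10 and Mmp13 carry all filled points, and Mmp1a and Mmp1b between them stay near 0.

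MPO activity was related to the genes over the 27 dosed arrays with group and batches in the model. No gene and no probe set passed (0% of 28853, and 984 at an unadjusted p under 0.05 where about 1443 would be reached by chance). The slopes of all 10 genes were positive, and 5 had an unadjusted p under 0.05: Mmp3 with 0.35 ± 0.13 log2 per doubling of MPO activity, Mmp10 with 0.32 ± 0.13, Mmp13 with 0.30 ± 0.11, Mmp8 with 0.28 ± 0.10 and Timp1 with 0.24 ± 0.11 (limma, adjusted p 0.980 for each). The relation did not hold in both hybridization batches. The slope of Mmp3 was 0.68 in batch 1 and 0.01 in batch 2, and that of Timp1 0.53 and 0.00. Without the arrays of small spread the slope of Mmp3 was 0.16 and that of Timp1 0.07. Those of Mmp7 and Mmp12 turned negative there, which left 8 of 10 positive. Without the 2 animals farthest from the median MPO activity the slopes were higher, 0.60 for Mmp3, 0.51 for Mmp10 and 0.40 for Timp1, and none passed (adjusted p 0.290 for Mmp3). On colon length, which shortens in colitis, 0 genes and 0% of probe sets passed (700 at an unadjusted p under 0.05), and 2 of the 10 slopes were positive. The direction was not stable: 10 of 10 were positive without the 2 animals farthest from the median length (Mmp3 0.42 against -0.49 with all animals), and 9 of 10 in hybridization batch 2 alone. Without the arrays of small spread 0 of 10 were positive.

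Other genes of metalloproteinase control were read from lists, also chosen with earlier results of these data known. Of all 28853 probe sets 9.35%, 9.01%, 9.09% and 7.27% passed as higher in siTNF-OMe-P, siTNF-OMe, siTNF and scrambled over Control, with a median difference between -0.05 and -0.03 log2, and the list counts below are set against these shares. Of 13 other metalloproteinases 3 rose over Control in siTNF-OMe-P, 3 in siTNF-OMe, 2 in siTNF and 1 in scrambled, with list medians of 0.07, 0.01, 0.01 and 0.06 log2. Mmp19, a secreted metalloproteinase, rose in all 4 (0.94, 1.01, 0.76 and 0.67 log2). Of 7 other inhibitors 3 rose and 1 fell in each of the 4 comparisons, with medians of -0.04, -0.09, 0.05 and 0.20 log2. Timp3, which stays bound to matrix, rose by 0.77, 0.77, 0.76 and 0.66 log2 and Timp2, which takes part in Mmp2 activation by Mmp14, by 0.78, 0.80, 0.70 and 0.64, while Timp4 fell by 1.13, 1.25, 0.97 and 0.99 log2 (siTNF-OMe-P, siTNF-OMe, siTNF, scrambled). Reck, a membrane-anchored inhibitor, was the other that rose.

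Of 14 ADAM and ADAMTS proteases 7, 8, 8 and 6 rose in siTNF-OMe-P, siTNF-OMe, siTNF and scrambled and none fell, with medians of 0.45, 0.55, 0.45 and 0.39 log2. The aggrecan-cutting Adamts1 rose by 1.85, 1.81, 1.82 and 1.08 log2 and Adamts4 by 1.59, 1.74, 1.64 and 1.02. Of 13 proenzyme activators and surface partners 5, 7, 6 and 6 rose and none fell (medians 0.37, 0.38, 0.22 and 0.40 log2). Lcn2, lipocalin 2, rose by 2.83, 3.05, 3.07 and 2.53 log2, and Plat, tissue plasminogen activator, by 1.32, 1.84, 1.54 and 1.05. Of 13 matrix substrates 7, 9, 6 and 5 rose and none fell (medians 0.40, 0.43, 0.22 and 0.30 log2), with Tnc, tenascin C, at 1.05, 1.13, 1.11 and 0.86 log2 and Fn1, fibronectin, at 0.72, 0.77, 0.88 and 0.69.

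Of 9 cytokines that induce metalloproteinases 4, 3, 3 and 3 rose and none fell (medians 0.62, 0.58, 0.64 and 0.35 log2). Il1b, interleukin 1 beta, rose by 1.56, 1.74, 1.44 and 1.07 log2 and Tnf, the siRNA target, by 0.74, 0.84, 1.15 and 0.96 log2 over Control. Of 11 AP-1, ETS, NF-kB and STAT factor genes 5, 4, 6 and 4 rose and none fell (medians 0.41, 0.39, 0.43 and 0.24 log2), with Stat3 at 0.85, 0.93, 0.93 and 0.85 log2 and Junb at 1.01, 1.06, 1.01 and 0.77. None of these lists had a member that passed in any Tnf siRNA over scrambled.

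Markers of the cells that make metalloproteinases moved in the same comparisons. Of 12 macrophage markers 11, 12, 12 and 11 rose over Control in siTNF-OMe-P, siTNF-OMe, siTNF and scrambled, with Cd68 at 2.02, 2.18, 1.91 and 1.87 log2. The mean over the list ran from 10.18 to 10.97 in siTNF-OMe-P, 10.50 to 10.82 in siTNF-OMe, 10.25 to 11.00 in siTNF and 10.17 to 10.80 in scrambled, against 8.58 to 9.61 in Control. Of 12 neutrophil markers 7, 7, 6 and 4 rose, with S100a8 at 2.81, 3.25, 2.55 and 2.04 log2. Of 10 fibroblast markers 7, 8, 6 and 5 rose, with Pdpn at 1.37, 1.43, 1.08 and 1.06 log2 and Pdgfra at 0.82, 0.96, 0.83 and 0.77. All 6 smooth muscle markers rose in all 4 groups, by a median of 0.45, 0.42, 0.42 and 0.41 log2. Of 5 endothelium markers 3, 3, 4 and 3 rose, with Cdh5 at 0.90, 0.97, 0.93 and 0.79 log2. Of 5 adipocyte markers 1 rose in each, Fabp4, and 1 fell in siTNF-OMe-P, Pparg, at -0.40 log2 (adjusted p 0.0330).

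Of 10 colon epithelium markers 1, 1, 2 and 2 rose and 1, 1, 0 and 0 fell, the fallen one being Slc26a3, a chloride exchanger gene, at -0.70 and -0.65 log2. Of 11 squamous markers 5, 8, 0 and 0 rose over Control, and none passed in a comparison among the dosed groups. The part of any of these cell types in the metalloproteinase differences was not tested.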

How the data were processed

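Per the labels' protocols, 25 ng of total RNA was amplified, biotin labelled and hybridized in 3 amplification and 2 hybridization batches, named here from dates in the labels. The authors deposited log2 signals per probe set, for which the submitters' processing notes name Partek and RMA without versions. Whether they removed batch effects is not stated. All 28853 probe sets were fitted with limma 3.58.1 (R 4.3.3): group, amplification and hybridization batch on 36 arrays, empirical Bayes with trend, two-sided, Benjamini-Hochberg over all probe sets of a comparison, threshold 0.05, 28 residual degrees of freedom. The SE had a median over probe sets of 0.108 log2 for scrambled over Control, and the number of arrays limits the precision. The fit was tested on simulated data. MPO activity was log2 transformed. Promoters and positions are from RefSeq (GRCm38.p6); 8 of the 10 genes matched a promoter. Python 3.11.15, pandas 2.3.3, NumPy 2.4.6 and matplotlib 3.10.9 were used.

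The members, gene lists and tests were chosen with earlier results of these data known. The naming rule takes all members, up to 2 risen and 2 fallen list genes called in scrambled over Control, and the 3 genes most like each member. Reck, Pparg and Slc26a3 fall outside it and were chosen after their values were seen. The squamous limit of 8 was set after seeing the data. The SD limit of 1.7 came from earlier results. Alternatives were no batch terms, each batch alone, the replicate number as a block, only the 2 groups compared, arrays left out, quantile normalization, median centring, array SD as a covariate, array weights, other moderation, and dim probe sets left out. Replicate numbers were not taken as pairing arrays in the main fit. Each array is taken as a separate animal, since each has its own colon measurements.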

Additional observations from a re-analysis of the deposited data

Results flagged for a closer look

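In 11 of the 50 sets formed by 1 gene and 1 group, the highest array stood apart from the rest by Dixon's 95% criterion, where chance alone would give about 2.5 (1 in 20). All 11 were high arrays, and they came from 4 colons. The same colons recur in the sets of genes that vary together. The 11 sets are therefore not independent, and the 2.5 is only a rough guide. siTNF replicate 3 stood apart for Mmp8 (9.36, the next array 6.72), Mmp9 (8.94, next 7.19), Mmp3 (12.18, next 9.99), Mmp10 (10.84, next 9.00) and Mmp13 (9.98, next 8.12). Scrambled replicate 2 stood apart for Mmp9 (7.85, next 7.32), Mmp3 (11.57, next 10.04), Mmp10 (11.01, next 9.50) and Mmp13 (10.60, next 8.45). Mmp8 stood apart in siTNF-OMe-P replicate 3 (8.86, next 7.12) and siTNF-OMe replicate 3 (7.88, next 7.10). No Control array stood apart for any of the 10 genes, and neither did any array for Mmp2, Mmp7, Mmp12, Mmp14 or Timp1.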

How the results depend on the processing

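For each member and comparison with Control, 708 values were recomputed outside the leave-one-out fits: 587 kept direction and side of the threshold, 19 changed sign without being called in either setting (14 for Mmp7, 3 for Mmp9, 2 for Mmp8), 69 lost the call, 26 gained it and 7 reversed to a call, all 7 for Mmp7. The reversed Mmp7 values were, in siTNF-OMe-P, 0.4589 log2 in amplification batch 1 alone, 0.18 without the arrays of SD under 1.7 and 0.1588 with array weights, in siTNF-OMe 0.1966 and 0.1415 for the last 2 settings, and in scrambled 0.2376 and 0.1936. The number of the 10 genes called over Control (6 in siTNF-OMe-P, 6 in siTNF-OMe, 4 in siTNF, 4 in scrambled) was 3 and 0 for siTNF-OMe-P in amplification batches 2 and 3 alone, 1 and 0 for siTNF-OMe in amplification batches 1 and 3, 0, 2 and 0 for siTNF in amplification batches 1, 2 and 3, and 2, 2 and 0 for scrambled. In hybridization batches 1 and 2 alone it was 3 and 6 for siTNF-OMe-P, 1 and 2 for siTNF and 1 and 2 for scrambled. Fits of a batch alone hold fewer arrays, and the share of all probe sets called in them ran from 0.229% to 33.6%. Array weights gave 10 for siTNF-OMe-P and 8 for scrambled, and leaving out the arrays of SD under 1.7 gave 7 for scrambled, with 13579, 16262 and 14417 of 28853 probe sets called, against 4596 in siTNF-OMe-P and 3384 in scrambled with the main setting. Array SD as a covariate called 9400, 8594, 7594 and 7372 probe sets and 7, 7, 5 and 5 members. Without the arrays of raised squamous markers, siTNF kept 2 and siTNF-OMe 1, with 2905 and 1091 probe sets called. Leaving out each array in turn gave 5 to 7 for siTNF-OMe-P, 6 to 7 for siTNF-OMe, 2 to 4 for siTNF, 2 to 5 for scrambled and 0 to 0 for all comparisons among dosed groups and both slopes. All 20 calls under quantile normalization and all 20 under median centring were higher than Control. With the replicate number as a block (replicate block in place of batch terms) 6, 6, 4 and 5 genes were called in siTNF-OMe-P, siTNF-OMe, siTNF and scrambled over Control and 0 elsewhere. Same-numbered arrays of different groups had a median correlation of deviations of 0.124 (-0.697 to 0.868, 64 pairs) against -0.00563 for other numbers (451 pairs). Batch was not removed from these deviations, so they cannot settle whether the numbers pair arrays. Leaving out the dimmest 40% of probe sets removed Mmp7, Mmp8 and Mmp9. The mean over all probe sets of a gene equals the main value, as each gene had 1.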
